A study of Mus musculus with 189 samples.

Results

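The housekeeping transcripts Hnrnpr, Ssu72, Ube2e1, Gapdh, Hspa8 and Lmnb1, measured in mouse oocytes and preimplantation embryos, are described here as they stand before any normalization. They are 6 of the 192 assays of the series and were taken by name from the table of non-normalized values. Hnrnpr, Ssu72 and Ube2e1 are the endogenous controls that the study's methods name, and their assays are marked PASS in the deposited quality control column. Gapdh, Hspa8 and Lmnb1 are marked FAIL there, and the mean of these 3 is what the deposited normalized table subtracts from every value, to within 1.03e-08. All values below are 30 minus the cycle threshold (Ct, the PCR cycle at which a product is detected), called the level, so that a higher level means more transcript and 1 cycle is about 1 doubling. Levels of different assays depend on their primers and are not set against each other, and differences are followed only within an assay or as changes of a difference.

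The cells came from F1 females (C57BL/6 × DBA/2) that had been superovulated, mated for embryo collection to C57BL6 males, with embryos cultured in KSOMaa medium under low oxygen. There were 12 MII oocytes, 14 zygotes, 15 single blastomeres of the 2-cell stage, 7 of the 3-cell, 9 of the 4-cell, 24 of the 8-cell, 20 of the 16-cell (morula) and 34 of the 32-cell stage (blastocyst). These 135 single cells were joined by 15 whole embryos, 3 each at the 2-, 4-, 8-, 16- and 32-cell stage. For some 3-cell samples of embryo 3c.e2 the titles do not settle whether each is a single cell, and all are counted here as such. Groups of blastomeres (6 of morulae and 18 of blastocysts), 1 isolated inner cell mass (ICM), 1 isolated trophectoderm (TE) and 10 samples of embryonic stem cell (ESC) RNA of stated amount complete the 189 samples, with 3 samples of the 2-cell stage whose labels do not settle whether they are a blastomere or an embryo. The stage names are nominal, since the labels number some blastomeres of the 16-cell embryos beyond 16. The labels do not say which samples shared a chip, a day or a female.

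Housekeeping transcripts encode proteins that nearly every cell needs, and a quantitative PCR of single cells commonly divides each value by a few of them to cancel differences in the amount of RNA. The early mouse embryo is a hard case for this practice, because the egg stores a large maternal RNA pool, destroys much of it around the first cleavage and then transcribes its own genome, while cleavage divides the egg's cytoplasm into ever smaller cells. Hnrnpr encodes an RNA-binding protein of the hnRNP family, Ssu72 a phosphatase of the RNA polymerase II tail, and Ube2e1 a ubiquitin-conjugating enzyme. Gapdh encodes a glycolytic enzyme, Hspa8 the constitutive Hsc70 chaperone, and Lmnb1 a B-type lamin of the nuclear envelope.

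The housekeeping transcripts were detected almost throughout. Of their 1134 values, 1 lay at the baseline (Hnrnpr in blastomere 1 of embryo blast.09), while 7211 of the 36288 values of the table were at or above a Ct of 30. Undetected assays per sample ranged from 14 to 69 of 192 with a median of 39. The study's own list of samples does not hold 3 of the single cells. According to its methods, cells in which the endogenous controls were weak or missing were taken out. No reason is given for these 3 in particular. Oocyte MII.5 had Hspa8 at 14.62, blast.09_b1 had Hnrnpr at 0 and blast.11_b2 had Ube2e1 at 6.98. They are kept here, and values without them are given where they matter. Since they stand out by low values of these transcripts, values without them are no independent check of the spread. Detection of marker transcripts followed the labels only in part. Dazl, ZP3 and Brdt, all germ cell transcripts, were each detected in 12 of 12 oocytes. At the 32-cell stage they were detected in 3, 6 and 19 of 34 blastomeres, and in ESC RNA in 7, 8 and 6 of 10 samples. The pluripotency transcript Nanog was detected in 0 of 12 oocytes and 34 of 34 blastomeres of the 32-cell stage. Nanog, Pou5f1 and Sox2 were detected in 10 of 10 ESC RNA samples, and Pou5f1 and Sox2 in 12 of 12 oocytes too. The trophectoderm transcripts Cdx2, Gata3 and Krt8 were detected in 12, 12 and 11 of 12 oocytes, and in 22, 15 and 34 of 34 blastomeres of the 32-cell stage. In ESC RNA they were detected in 5, 4 and 10 of 10 samples.

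Per cell, none of the 6 transcripts held one level from egg to blastocyst. The means of the 8 stages spanned 2.06 cycles for Lmnb1, the smallest range, then 3.86 for Gapdh, 4.28 for Ssu72, 5.32 for Hspa8, 5.73 for Hnrnpr and 6.31 for Ube2e1. The stage that held the lowest mean differed between the triples. It was the 32-cell stage for Hnrnpr (10.3), Ssu72 (12.2) and Ube2e1 (12.4). For Gapdh (13.6), Hspa8 (16.6) and Lmnb1 (11.6) it was the 2-cell stage. All single 2-cell blastomeres carry the tag A in their titles, so stage and tag cannot be told apart for these minima. In 2c.A.e1 and 2c.A.e5 both blastomeres together gave less than the whole-embryo mean for all 6 transcripts. For Gapdh the means over embryo units were 13.4 in 2-cell and 13.7 in 8-cell blastomeres, a gap within its spread between cells. The standard deviation (SD) between cells of a stage, pooled over stages, was 1.34 cycles for Hnrnpr and 0.958 without the 3 samples. It was 1.17 for Hspa8 and 0.966 without the 3 samples, 1.08 for Ube2e1, 0.94 for Ssu72 and 0.925 for Lmnb1. For Gapdh it was 1.43 in both cases, with the low blastomeres of 16-cell embryo mor.5 kept. The SD of Gapdh within embryos was 2.88 at the 16-cell stage and 0.589 to 1.09 at the other stages of blastomeres.

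**Figure D1:**
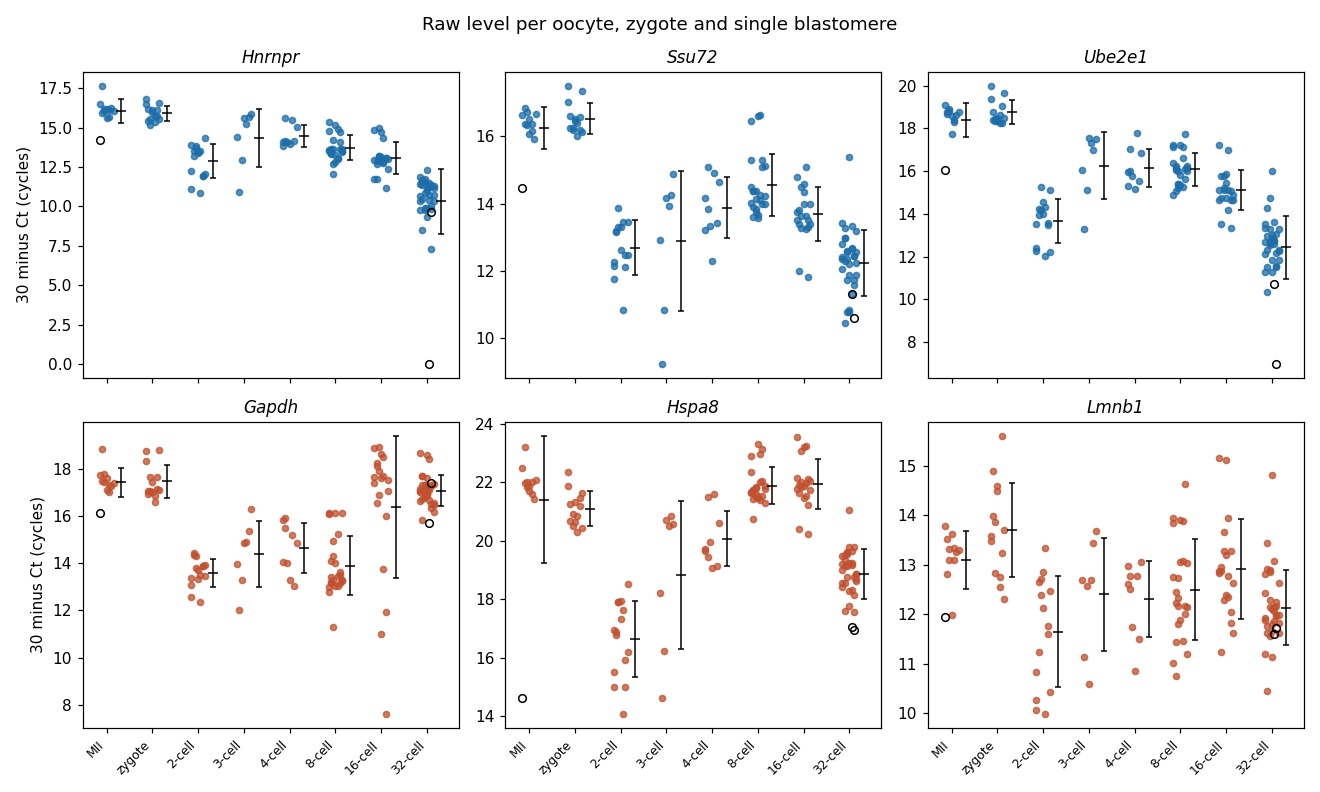
Level (30 minus Ct, in cycles) of each housekeeping transcript in every MII oocyte, zygote and single blastomere, by stage, with the controls named in the methods in blue and the 3 assays marked FAIL in red. Each point is a cell, bars give the mean ± SD over cells, and open circles are the 3 samples left out by the study. On this raw scale all 6 are low at the 2-cell stage, whose single blastomeres all carry the tag A in their titles. The blue transcripts reach their lowest means at the 32-cell stage while Gapdh stands near its level in oocytes.

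Oocytes and zygotes did not differ by more than the spread between them. Hnrnpr ran from 14.23 to 17.67 with a median of 16.10 in oocytes and from 15.198 to 16.81 with a median of 15.87 in zygotes. Gapdh ran from 16.1 to 18.8 with a median of 17.4 in oocytes and from 16.6 to 18.8 with a median of 17.1 in zygotes. The groups overlapped for both. By limma over all 192 assays, with Benjamini-Hochberg adjustment, 0 of the 6 passed an adjusted p of 0.05 (percent of assays called, 0.521; 5 of 192 assays had an unadjusted p below 0.05). The largest difference among the 6, zygote minus oocyte, was 0.61 ± 0.28 (SE) for Lmnb1 with an adjusted p of 1. Hspa8 had an SD of 2.19 over the 12 oocytes and 0.481 over the 11 without MII.5.

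From zygote to single 2-cell blastomere all 6 fell on the raw scale, with changes of -5.69 to -2.57 cycles (percent called, 77.6), and 4 of them turned direction relative to the sample median. The median change of the 64 assays detected in every cell and whole embryo was -5.01. Ube2e1 ranged from 18.2 to 20.0 with a median of 18.5 in zygotes and from 12.0 to 15.3 with a median of 14.0 in blastomeres. Lmnb1 ranged from 12.3 to 15.6 with a median of 13.6 in zygotes and from 9.98 to 13.3 with a median of 11.8 in blastomeres. The groups did not overlap for Ube2e1 and overlapped for Lmnb1. The fitted change, over embryo means of 14 zygotes and 3 embryo units, was -5.69 ± 0.54 for Ube2e1 (adjusted p = 1.11e-13) and -2.57 ± 0.45 for Lmnb1 (adjusted p = 1.15e-06). The change was -5.13 ± 0.79 for Hspa8, -4.27 ± 0.45 for Ssu72, -4.08 ± 0.52 for Gapdh and -3.80 ± 0.57 for Hnrnpr. Relative to each sample's median over the 64 assays the direction turned for Hnrnpr (0.96), Ssu72 (0.50), Gapdh (0.68) and Lmnb1 (2.19), of which Hnrnpr and Lmnb1 passed the threshold as higher. With the mean of Hnrnpr, Ssu72 and Ube2e1 subtracted the same 4 turned, and in the deposited normalized table Hnrnpr and Lmnb1 did. Each of these scalings subtracts the mean of a triple, so the changes of that triple's own transcripts cancel by arithmetic. The single 2-cell blastomeres all carry the tag A in their titles, which the labels do not explain, and 11 of the 15 come from embryos without a number and were averaged as 1 unit.

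From the 2-cell to the 4-cell stage 4 of the 6 rose per cell on the raw scale (percent called, 43.2), of which Hnrnpr and Ssu72 turned direction under another scaling, against a median of 2.09 over the 64 assays. Hspa8 ranged from 14.1 to 18.5 with a median of 16.9 in 2-cell blastomeres and from 19.1 to 21.6 with a median of 19.7 in 4-cell blastomeres, without overlap. The fitted changes over 3 units a stage were 4.03 ± 1.02 for Hspa8 (adjusted p = 0.00172), 3.08 ± 0.70 for Ube2e1 (adjusted p = 0.000546), 2.29 ± 0.73 for Hnrnpr (adjusted p = 0.0103) and 1.62 ± 0.58 for Ssu72 (adjusted p = 0.0209), and the last 2 turned direction under centring on the sample median (-0.0010 and -0.68). Gapdh (1.40 ± 0.67) and Lmnb1 (1.19 ± 0.58) did not pass. Only Hspa8 and Ube2e1 passed when each blastomere without an embryo number was counted as a unit or when the 3 samples of unclear unit were added as blastomeres. Without embryo 2c.A.e1 the count was also 2. All single 2-cell blastomeres carry the tag A and the 4-cell blastomeres do not, so stage and tag cannot be told apart here either. Between whole embryos of these stages 0 of the 6 passed (percent called, 0.521), with a median of 0.17 over the 64 assays. The 7 blastomeres of 3-cell embryos spread widely, with Hspa8 from 14.6 to 20.9 and Ssu72 from 9.25 to 14.9.

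Between the 4-cell and the 8-cell stage 0 of the 6 passed the test per cell on the raw level by limma (percent called, 24), and 59 of 192 assays had an unadjusted p below 0.05. Hspa8 went from a median of 19.7 to 21.7, with 8-cell blastomeres from 20.8 to 23.3. Its means per embryo were 19.58, 20.21 and 20.23 at the 4-cell and 22.28, 21.55, 22.01 and 21.57 at the 8-cell stage, without overlap. Its fitted difference was 1.85 ± 0.95 with an adjusted p of 0.18, and without the 3 samples left out by the study it was 1.85 with an adjusted p of 0.0122. The fit shares 1 estimate of spread over all stages, which holds the low Hspa8 value of oocyte MII.5. Hspa8 also passed as higher under all 3 scalings (1.49 to 2.41). In the deposited normalized table its sign follows by arithmetic, since Hspa8 rose most of the transcripts whose mean is subtracted there. Gapdh differed by -1.05 ± 0.63 and Hnrnpr by -0.67 ± 0.69.

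From the 8-cell to the 16-cell stage Gapdh alone of the 6 rose per cell, and the other 5 stayed within 1.05 cycles of their 8-cell means without passing the test (percent called, 7.29). Gapdh ranged from 11.3 to 16.1 with a median of 13.4 in 24 blastomeres of the 8-cell stage and from 7.62 to 18.9 with a median of 17.5 in 20 blastomeres of the 16-cell stage. The groups overlapped because of 5 blastomeres at or below 16.1. Under all 3 scalings the change of Gapdh was positive and past the threshold (1.63 to 3.50). In the deposited normalized table its sign follows by arithmetic, since Gapdh rose most of the transcripts whose mean is subtracted there. On the raw scale the fitted change was 2.66 ± 0.71 (adjusted p = 0.00999) over 4 and 2 embryos, against a median of -0.39 over the 64 assays. With embryo mor.5 left out it was 3.71, and with mor.4 left out it was 1.62 with an adjusted p of 0.478. Ube2e1 differed by -1.05 ± 0.74, Ssu72 by -0.80 ± 0.62 and Hnrnpr by -0.66 ± 0.78, while Lmnb1 differed by 0.33 ± 0.62 and Hspa8 by 0.10 ± 1.08.

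From the 16-cell to the 32-cell stage 4 of the 6 fell per cell on the raw scale, of which Ssu72 turned direction relative to the sample median, and Gapdh did not pass (percent called, 54.2). The median change of the 64 assays was -2.25. Hnrnpr ranged from 11.19 to 14.97 with a median of 12.97 in 16-cell blastomeres and from 0 to 12.31 with a median of 10.71 in 32-cell blastomeres. Gapdh ranged from 15.7 to 18.7 with a median of 17.1 in 32-cell blastomeres, within the range of the 16-cell stage. The change was -3.29 ± 0.72 for Hnrnpr (adjusted p = 0.000265), -3.25 ± 1.00 for Hspa8 (adjusted p = 0.00523), -3.02 ± 0.69 for Ube2e1 (adjusted p = 0.000392) and -1.63 ± 0.57 for Ssu72 (adjusted p = 0.0146), and Ssu72 turned direction when each sample was centred on its median (0.57). Gapdh differed by 0.63 ± 0.66 on the raw scale and Lmnb1 by -0.82 ± 0.57. Relative to the sample median Gapdh rose by 2.83 with an adjusted p of 4.69e-05. Without embryo mor.5 only Hnrnpr and Ube2e1 passed as lower, and the raw difference of Gapdh was -0.41.

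Blastomeres of one embryo differed among themselves as well. The SD within embryos was 0.57 cycles for Hspa8 and 0.68 for Hnrnpr at the 8-cell stage (20 degrees of freedom), and 0.62 for Gapdh at the 32-cell stage (27 degrees of freedom). It was 2.88 for Gapdh at the 16-cell stage, where the other 5 lay between 0.79 and 1.01. Embryo mor.5 carried this spread. Its blastomere b11 had Gapdh at 7.62, b1 at 11.0, b9 at 11.9 and b8 at 13.8, and the other 6 of its 10 blastomeres lay between 17.0 and 18.9. All 10 blastomeres of mor.4 lay between 16.0 and 18.6. The other transcripts did not mark these cells in the same way, as Hspa8 was 21.5 in b1, 21.2 in b9 and 21.5 in b8, beside 21.6 in b5 with Gapdh at 18.2. For each blastomere of the embryos with at least 4, with the 11 unnumbered 2-cell blastomeres as 1 set, the deviation of Gapdh from its embryo's median was compared with the mean deviation of the other 5 transcripts. Among these 82 blastomeres the 4 lowest values were -8.06, -6.14, -5.04 and -3.15, all in mor.5, and the fifth was -1.71. In b11 the other 5 were low too, with a mean deviation of -1.63. Blastomere b8 of mor.4 had a mean deviation of -1.47 for the other 5, with Gapdh at -1.03 from its embryo's median. The 4 blastomeres of mor.5 were singled out after their values were seen.

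**Figure D2:**
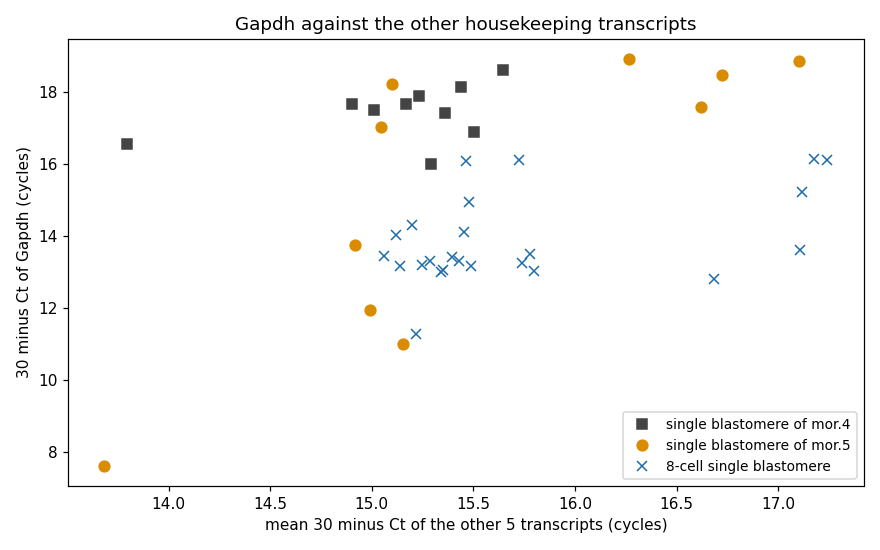
Level of Gapdh (cycles) against the mean level of the other 5 housekeeping transcripts (cycles) in single blastomeres of 16-cell embryos mor.4 and mor.5 and of 8-cell embryos; each point is a blastomere. The 4 lowest blastomeres of mor.5 have Gapdh between 7.62 and 13.8. Blastomeres with Gapdh above 16 also reach the means of the other 5 seen in b1, b9 and b8, but not the lower mean of b11.

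Pairs of transcripts were compared by the spread of their difference, over all cells and within stages. Over the 135 single cells, stage differences included, the SD of the difference between 2 transcripts was 1.11 cycles for Ssu72 and Ube2e1, 1.20 for Hnrnpr and Ube2e1 and 1.39 for Hnrnpr and Ssu72. Within the second triple it was 1.72 for Hspa8 and Lmnb1, 1.90 for Gapdh and Lmnb1 and 2.53 for Gapdh and Hspa8. Between the triples it ran from 1.31 for Ssu72 and Lmnb1 to 3.03 for Hnrnpr and Gapdh. Averaged over its 5 pairs, Gapdh had the largest value (2.55) and Ssu72 the smallest (1.53). Without the 3 samples left out by the study the pairs of the first triple were at 0.859 to 1.05, those of the second at 1.66 to 2.45 and those between the triples at 1.30 to 2.85. Within stages, and without these 3 samples, Hspa8 was as close to the first triple as its members were to each other, while Gapdh and Lmnb1 were not. Without the 3 samples the SD within stages was 0.587 for Hnrnpr and Hspa8 and 0.599 for Ssu72 and Hspa8. These lay under the 0.605 to 0.692 of the pairs of the first triple. The pairs of the second triple were at 0.864 to 1.40, and those of Gapdh or Lmnb1 with the first triple at 0.808 to 1.34. With the 3 samples it was smallest for Ssu72 and Ube2e1 (0.696), then 0.756 for Ssu72 and Hspa8. The pairs of Hnrnpr with Ssu72 and Ube2e1 were then at 1.07 and 1.11. Lmnb1 was under both of these with Ssu72 (0.809) and Ube2e1 (0.950), and above them with Hnrnpr (1.26). The values of Gapdh hold the low blastomeres of embryo mor.5 throughout. These values are descriptions, since the cells share embryos and stages.

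The mean of Hnrnpr, Ssu72 and Ube2e1 minus the mean of Gapdh, Hspa8 and Lmnb1 follows the drift between the triples. It was -0.41 ± 0.38 (SD, n = 12) in oocytes, -0.35 ± 0.36 (n = 14) in zygotes, -0.88 ± 0.30 (n = 15) at the 2-cell, -0.69 ± 0.58 (n = 7) at the 3-cell and -0.83 ± 0.41 (n = 9) at the 4-cell stage. It then lay at -1.30 ± 0.57 (n = 24) in 8-cell, -3.13 ± 0.95 (n = 20) in 16-cell and -4.36 ± 0.84 (n = 34) in 32-cell blastomeres. Up to the 4-cell stage the groups overlapped throughout. The 34 blastomeres of the 32-cell stage, from -7.43 to -3.09, all lay below the 24 of the 8-cell stage, from -2.52 to -0.56. The change from zygote to 32-cell blastomere was -4.00, and -3.85 without the 3 samples. Leaving out any 1 of the 6 transcripts kept it between -4.56 and -3.50. The change from the 8-cell to the 16-cell stage was -1.83, and -1.08 with Gapdh not counted. The sign of the difference at a stage has no meaning across assays, and it was positive at every stage up to the 8-cell when Hspa8 was not counted.

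**Figure D3:**
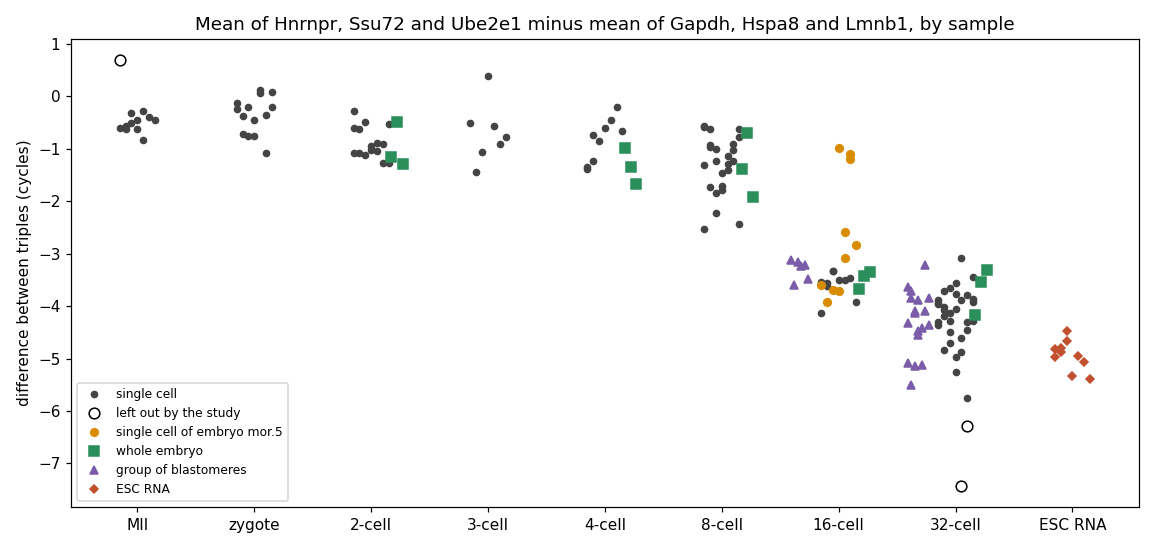
Difference between the triples (mean level of Hnrnpr, Ssu72 and Ube2e1 minus mean level of Gapdh, Hspa8 and Lmnb1, in cycles) in every sample by stage and in ESC RNA; marks show single cells, embryo mor.5, whole embryos, groups of blastomeres and the 3 samples left out by the study. Stages up to the 8-cell lie between -2.52 and 0.69 and 32-cell blastomeres between -7.43 and -3.09, while 4 blastomeres of mor.5 lie between -2.59 and -0.98, above the rest of their stage.

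Within the 16-cell stage the difference ran from -4.12 to -3.33 in mor.4 and from -3.91 to -0.98 in mor.5, where b1 was at -0.98, b11 at -1.10, b9 at -1.19 and b8 at -2.59. The 6 groups of blastomeres of the 16-cell stage had -3.30 ± 0.20 and none was above -3.12. The isolated ICM had -3.57 and the isolated TE -3.70, and the 18 groups of the 32-cell stage -4.30 ± 0.61. Whole embryos moved likewise, with -1.16, -0.48 and -1.29 at the 2-cell, -0.98, -1.34 and -1.68 at the 4-cell, -1.39, -0.69 and -1.91 at the 8-cell, -3.67, -3.43 and -3.35 at the 16-cell and -4.17, -3.55 and -3.31 at the 32-cell stage. The 3 whole embryos of the 16-cell stage and those of the 32-cell stage overlapped with each other and lay below all 9 of the earlier stages. The change from the 8-cell to the 16-cell embryo was -2.15, and -0.81 with Gapdh not counted.

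By arithmetic, the change of this difference is the amount by which every other assay's change between stages differs between the normalizations. From the 8-cell to the 16-cell stage per cell, limma called 6 of 192 assays higher and 67 lower on the deposited normalized values, and 25 higher and 9 lower after subtraction of the mean of Hnrnpr, Ssu72 and Ube2e1. On the raw level it called 5 higher and 9 lower. For the step to 32 cells the counts were 8 higher and 57 lower on the deposited values and 25 higher and 4 lower with the other triple, against 2 higher and 102 lower on the raw level. From zygote to 2-cell blastomere they were 43 higher and 88 lower against 49 higher and 68 lower.

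In whole embryos the raw levels changed in steps of their own. From zygote to the 2-cell embryo 3 of the 6 fell (percent called, 66.7), against a median of -1.77 over the 64 assays. Ube2e1 was 17.3, 17.5 and 14.3 in the 3 embryos, below all 14 zygotes, and differed by -2.38 ± 0.54 (adjusted p = 0.000154). The change was -1.87 ± 0.45 for Ssu72 (adjusted p = 0.000334) and -1.29 ± 0.52 for Gapdh (adjusted p = 0.0268), and Gapdh turned to 0.13 under centring on the sample median. Hspa8 (-0.86 ± 0.79), Lmnb1 (-0.74 ± 0.45) and Hnrnpr (-0.51 ± 0.57) did not pass. Embryo 2c.e3 was the lowest of the 3 for all 6 transcripts, and without it 0 of the 6 passed. With the 3 samples of unclear unit added as whole embryos all 6 fell. In Hspa8 those 3 samples lay within the range of single 2-cell blastomeres and below the whole 2-cell embryos.

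From the 2-cell to the 4-cell embryo 0 of the 6 passed (percent called, 0.521; 8 of 192 assays had an unadjusted p below 0.05), with differences from -0.10 for Hnrnpr to 1.02 for Ssu72. From the 4-cell to the 8-cell embryo 0 passed again (percent called, 9.9; 43 of 192 assays had an unadjusted p below 0.05). Hspa8 was 20.76, 21.22 and 21.78 in 4-cell and 23.69, 24.10 and 22.96 in 8-cell embryos, without overlap, a difference of 2.33 ± 1.02 with an adjusted p of 0.16. Without the 3 samples left out by the study, which are single cells and enter through the shared estimate of spread, its adjusted p was 0.00533.

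From the 8-cell to the 16-cell embryo all 6 rose on the raw scale (percent called, 66.7), Gapdh most, and all but Gapdh turned direction under another scaling. Gapdh was 16.96, 15.24 and 16.93 in 8-cell embryos and 22.49, 24.39 and 24.005 in 16-cell embryos. The groups were far apart, with a difference of 7.25 ± 0.67 (adjusted p = 7.93e-13), and Gapdh was higher under all 3 scalings too (2.68 to 4.83). Lmnb1 rose by 3.67 ± 0.58 (adjusted p = 9.28e-07), Ssu72 by 2.80 ± 0.58, Hspa8 by 2.77 ± 1.02, Ube2e1 by 2.23 ± 0.70 and Hnrnpr by 2.21 ± 0.73, beside a median of 2.74 over the 64 assays. Centred on the sample median, Hnrnpr (-0.42) and Ube2e1 (-0.40) turned direction without passing, and in the deposited normalized table all but Gapdh did. In that table the changes of Gapdh, Hspa8 and Lmnb1 cancel by arithmetic, so that whichever of them rose most is positive there.

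From the 16-cell to the 32-cell embryo Hnrnpr, Ube2e1 and Hspa8 fell on the raw scale (percent called, 51.6), against a median of -2.65 over the 64 assays. Hnrnpr was 16.6, 18.6 and 18.3 in 16-cell and 14.1, 15.3 and 15.5 in 32-cell embryos, a change of -2.87 ± 0.73 (adjusted p = 0.00112). It was -2.80 ± 1.02 for Hspa8 (adjusted p = 0.0184) and -1.95 ± 0.70 for Ube2e1 (adjusted p = 0.0171), and Ube2e1 turned to 0.26 under centring. Gapdh (-1.37 ± 0.67), Lmnb1 (-0.94 ± 0.58) and Ssu72 (-0.89 ± 0.58) did not pass. Without the second 16-cell embryo, or without the first 32-cell embryo, only Hnrnpr passed.

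Across the whole span, from zygote to 32-cell embryo, 4 of the 6 rose on the raw scale (percent called, 75), of which Ssu72, Hspa8 and Lmnb1 turned direction in the deposited normalized table, while the 64 assays had a median of -1.23. Gapdh rose by 4.80 ± 0.52 (adjusted p = 1.60e-11), Lmnb1 by 3.58 ± 0.45 (adjusted p = 1.26e-09), Hspa8 by 2.46 ± 0.79 (adjusted p = 0.00475) and Ssu72 by 2.08 ± 0.45 (adjusted p = 7.31e-05). In the deposited normalized table Ssu72 (-1.53) and Hspa8 (-1.15) fell and Lmnb1 (-0.034) did not pass. There the changes of Gapdh, Hspa8 and Lmnb1 cancel by arithmetic, since their own mean is subtracted. On the raw scale Hnrnpr differed by -0.96 ± 0.57 and Ube2e1 by -0.25 ± 0.54. The 3 largest rises are those of the triple that the deposited table subtracts. In whole embryos, fewer cells and less RNA per cell cannot be told apart.

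**Figure D4:**
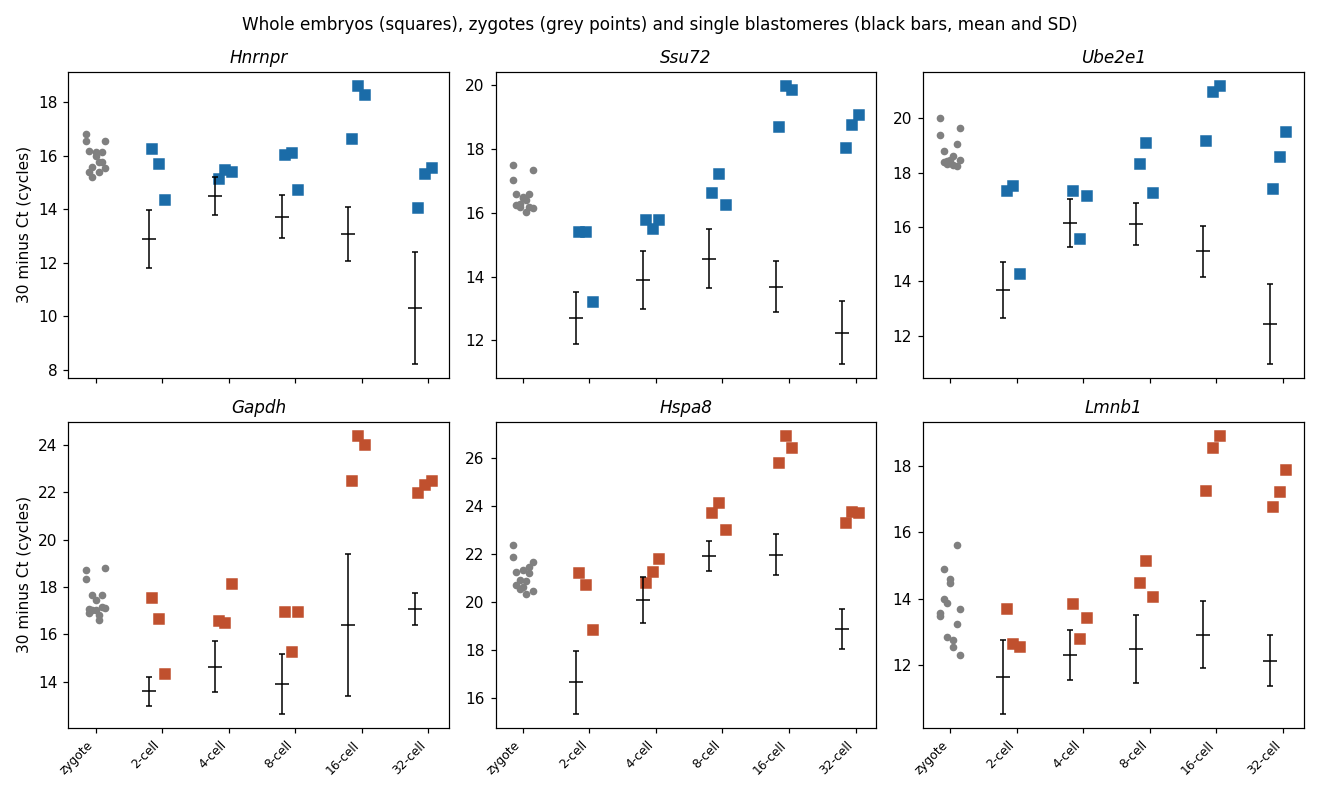
Level (30 minus Ct, in cycles) of each housekeeping transcript in 14 zygotes (grey), in the 3 whole embryos of each stage (squares) and in single blastomeres (black bars, mean ± SD over blastomeres). Gapdh is 15.24 to 16.96 in 8-cell and 22.49 to 24.39 in 16-cell embryos, and the gap between embryo and blastomere is wider at the 16-cell and 32-cell stages than at the stages before for each transcript.

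A whole embryo should exceed its blastomeres by the log2 of their number if all cells and reactions were alike. The differences between whole embryos and single blastomeres departed from this in both directions. At the 2-cell stage they ran from 1.83 ± 0.58 for Lmnb1 to 4.27 ± 1.02 for Hspa8, all above the expected 1, and 1 of the 6 intervals of 95% held that value. At the 4-cell stage they ran from 0.53 ± 0.70 for Ube2e1 to 2.28 ± 0.67 for Gapdh, with 5 of the 6 intervals holding 2. At the 8-cell stage they ran from 1.73 ± 0.95 for Hspa8 to 2.65 ± 0.63 for Gapdh, all under 3, and 6 of the 6 intervals held 3. At the 16-cell stage they ran from 4.40 ± 1.14 for Hspa8 to 7.24 ± 0.75 for Gapdh, with 3 of the 6 intervals holding 4, and at the 32-cell stage from 4.86 ± 0.86 for Hspa8 to 6.55 ± 0.49 for Ssu72, with 4 of the 6 holding 5. Without embryo mor.5 the 16-cell value of Gapdh was 6.20. The single 2-cell blastomeres and the whole 2-cell embryos carry different tags, so the kind of sample and the tag cannot be told apart.

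Embryos with every blastomere measured allow a direct sum. The 8 blastomeres of 8c.e5 summed to 16.5 for Gapdh and 14.6 for Lmnb1, beside means of 16.4 and 14.6 in whole 8-cell embryos. In 8c.e4, the other embryo with 8, the sums exceeded the whole-embryo means by 1.15 to 2.01 cycles for all 6, and in 8c.e5 by 0.063 to 0.98. In 4c.e6 the sums stood 0.63 to 1.71 above the whole-embryo mean for 5 transcripts and at -0.20 from it for Gapdh. In 2c.A.e1 and 2c.A.e5 the sums of both blastomeres lay below the whole-embryo mean for all 6, with differences from -3.96 for Hspa8 to -0.95 for Lmnb1 in the first embryo. The 3 samples of unclear unit had Hspa8 at 16.7, 16.3 and 17.4, within the 14.1 to 18.5 of single 2-cell blastomeres and below the 18.8 to 21.2 of whole 2-cell embryos.

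Groups of blastomeres compared with the single cells of their own embryo gave the same comparison on a smaller scale. The 6 groups of 2 or 3 cells at the 16-cell stage exceeded the mean of their embryo's single blastomeres by a median of 1.502 cycles for Lmnb1 to 2.11 for Ssu72. After subtraction of log2 of the cell number the medians were -0.083 for Lmnb1, 0.16 for Hspa8, 0.18 for Hnrnpr, 0.25 for Ube2e1, 0.52 for Ssu72 and 0.64 for Gapdh. For the 18 groups of 2 to 7 cells at the 32-cell stage the medians after this subtraction were all above 0, from 0.35 for Gapdh to 1.42 for Hnrnpr. Without the single cells left out by the study, a choice added after the values were seen, they ran from 0.19 for Gapdh to 0.58 for Hspa8, and Hnrnpr was at 0.33. The isolated ICM and TE, 1 sample each, differed by 1.61 for Hnrnpr (15.7 and 14.1), 1.31 for Ube2e1 (18.3 and 17.0) and 0.14 for Ssu72 (17.3 and 17.1), and their cell numbers are not given in the sources used here.

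ESC RNA of known amount shows how the assays answered to template. All 6 rose with the amount of RNA (percent called, 81.8), near 1 cycle per doubling. The slopes on log2 of the amount, with the dilution series as a term, were 0.99 ± 0.10 for Ssu72, 1.02 ± 0.066 for Lmnb1, 1.08 ± 0.039 for Hspa8, 1.10 ± 0.040 for Gapdh, 1.17 ± 0.073 for Hnrnpr and 1.23 ± 0.090 for Ube2e1, over 10 samples. The 95% intervals of Gapdh (1.00 to 1.19) and Ube2e1 (1.02 to 1.44) lay above 1 and those of the other 4 held it. The median slope of the 129 assays detected in all 10 samples was 1.11. In the 4-point series ESC.b Gapdh was 18.5, 19.6, 20.8 and 21.8 at 25, 50, 100 and 200 pg, and Ssu72 was 11.5, 11.5, 12.8 and 14.7. Ssu72 thus hardly moved between the lowest amounts, and in that series alone its slope of 1.12 had an adjusted p of 0.0562. The 3 samples of 200 pg (ESC.a) had SDs of 0.090 for Hspa8 to 0.29 for Ube2e1, as repeats of 1 purified RNA at 1 amount.

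**Figure D5:**
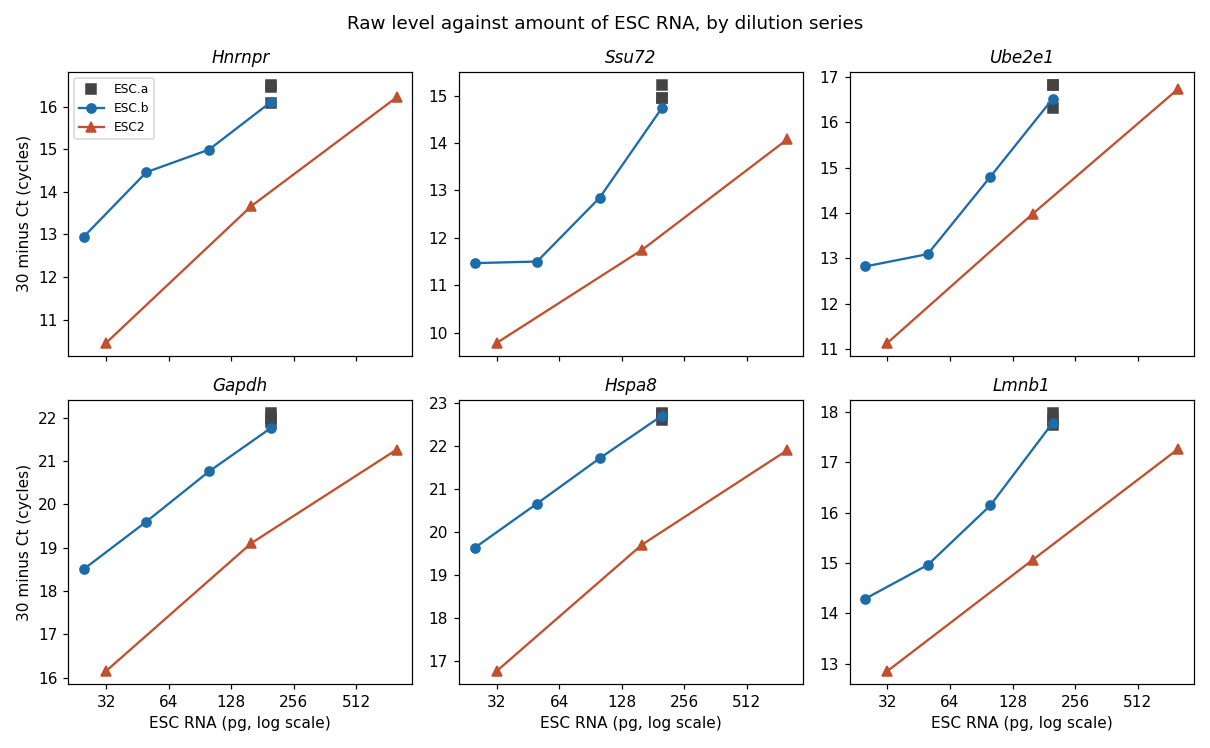
Level (30 minus Ct, in cycles) of each housekeeping transcript against the amount of ESC RNA (pg, log scale) in the series ESC.a, ESC.b and ESC2; each point is a sample. Gapdh is 21.8 at 200 pg in ESC.b and 21.3 at 800 pg in ESC2, so that the series ESC2 runs below the others at like amounts.

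The series were not interchangeable. At 160 pg ESC2 had Gapdh at 19.11 and Hnrnpr at 13.67, below the 20.76 and 14.99 of ESC.b at 100 pg. The difference between the triples was steadier, from -5.39 to -4.47 over all 10 samples, with a slope of 0.060 ± 0.045 cycles per doubling of RNA. Between 25 and 800 pg the amount of ESC RNA thus moved the difference by less than the stages did. ESC RNA lay below all single cells up to the 8-cell stage and within the range of 32-cell blastomeres.

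The assays that followed each transcript most closely per cell were sought among 58 other assays marked PASS and detected in all 135 single cells, by the SD of the difference. Hnrnpr was nearest to Ctcf, which encodes an insulator protein (SD 0.949, and 0.548 without the 3 samples), and to Nf2 (0.960). Ssu72 was nearest to Kdm5c (0.796) and Cbx5 (0.804), and Ube2e1 to Kdm1a (0.842) and DEK (0.850). Lmnb1 was nearest to Mtf2 (0.947), and Hspa8 to Lrpap1 (1.20) and Kdm3b (1.22). Gapdh had no near neighbour, with SDs of 1.84 to Setd5 and 1.85 to Ash2l and a median of 2.79 over the 58.

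A list of 18 broadly expressed chromatin and signalling genes, such as Ezh2, Hdac1 and Ctcf, gives the background of the raw changes. From zygote to single 2-cell blastomere 15 of the 18 fell and 1 rose, with a median of -5.06, beside -4.17 for the 6 housekeeping transcripts. From the 2-cell to the 4-cell stage per cell 12 rose and 0 fell (median 2.35, beside 1.95). From the 8-cell to the 16-cell stage 0 passed (median -0.51, beside -0.28), and 13 fell at the next step (median -2.55, beside -2.33). From zygote to whole 32-cell embryo 5 rose and 9 fell with a median of -1.19, while the 6 had a median of 2.27 and all 192 assays -0.32.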

How the data were processed

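Oocytes, zygotes, blastomeres (single or in groups), intact embryos and dilutions of ESC RNA were assayed by quantitative PCR on microfluidic chips. Per the study's methods, cells were lysed and their RNA reverse transcribed and preamplified over 18 cycles in the same reaction. Products were read with an intercalating dye, and assays with non-specific melting curves were failed (36 of 192). Values at a Ct of 30 or above were taken here as undetected. The deposited non-normalized values are Ct values, entered here as a score, and 30 minus Ct was computed from them. Of the 36288 values 6 lay above 30. The deposited normalized values are on a log2-like scale, on which the authors subtracted a mean of 3 assays from 30 minus Ct. These 3 are Gapdh, Hspa8 and Lmnb1 in the file (largest deviation 1.03e-08), not the controls that the methods name, with which the deviation reached 7.43. Which samples shared a chip is not given in the sources used here, so chips could not be tested as batches. Ct values hold no read depth, and the number of units limits the precision.

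Blastomeres were averaged per embryo, which left 12 oocytes, 14 zygotes, 3, 3, 3, 4, 2 and 7 units of single blastomeres at the 6 cleavage stages in order, and 3 whole embryos a stage. All were fitted together over all 192 assays with limma 3.58.1 in R 4.3.3 (lmFit and eBayes), and p-values were adjusted after Benjamini and Hochberg within each comparison, with a threshold of 0.05. Errors are SEs of the fit unless marked SD. Slopes on ESC RNA were fitted with the dilution series as a term. The step was tested on simulated data. The descriptions were computed with pandas 2.3.3 and numpy 2.4.6 under Python 3.11.15 and drawn in matplotlib 3.10.9. Named are the 6 transcripts in every comparison and, for each, the 2 assays with the smallest SD of the difference, of which 1 is not reported here. Members and lists were chosen with earlier results of these data known. Alternatives changed the samples, the unit of replication, the scaling, the treatment of undetected values, the filter and the variance model. Primer sequences and genome positions are not used here.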

Additional observations from a re-analysis of the deposited data

Results flagged for a closer look

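A sample was singled out where its gap to the nearest of the others was large against the range of its group (Dixon's criterion). The 91 sets of values came from 13 groups of 4 to 10 samples, namely the single blastomeres of 1 embryo where it had that many, the 3-cell blastomeres, the 4-cell blastomeres and the groups of blastomeres of the 16-cell stage. Chance alone flags about 1 in 20 sets, and 11 were flagged, all among single blastomeres of 1 embryo. The sets share samples, and the same blastomere can be flagged for several transcripts, so the count cannot show an excess over that rate. In morula mor.4 blastomere b8 was the lowest of 10 for Ssu72 (12.018), Ube2e1 (13.544), Hspa8 (20.412) and Lmnb1 (11.234), while the others began at 13.267, 14.646, 21.782 and 12.285. In blastocyst blast.08 blastomere b9 was the highest of 8 for Ssu72 (15.399), Ube2e1 (16.017) and Lmnb1 (14.826), while the others ended at 13.34, 13.284 and 12.846. In blast.01 blastomere b1 had the highest Gapdh of 10 (18.674, the others at 16.488 to 17.334), and b4 the highest difference between the triples (-3.0895, the others at -4.2748 to -3.6462). In blast.10 blastomere b1 had the highest Ssu72 of 4 (13.432, the others at 10.474 to 10.861). In 8-cell embryo 8c.e6 blastomere b4 had the highest Lmnb1 of 5 (14.637, the others at 12.728 to 13.084). The 4 low Gapdh values of mor.5 met no such criterion, as they do not stand alone in their embryo.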

How the results depend on the processing

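Scaling moved the steps between stages most, and the cause was not tested. Subtracting the mean of a triple makes the changes of its own members cancel by arithmetic, so reversals among them are partly built in. Centred on its median over the 64 assays, 3 members passed from zygote to the 2-cell stage per cell, where Hnrnpr (0.96), Ssu72 (0.50), Gapdh (0.68) and Lmnb1 (2.19) reversed, and 1 at the 4-cell step, where Hnrnpr (-0.0010) and Ssu72 (-0.68) did. At the 8-cell step 2 passed per cell and 2 in whole embryos. At the 16-cell step 1 passed in whole embryos, with Hnrnpr (-0.42) and Ube2e1 (-0.40) reversed, and at the 32-cell step 1 per cell (Ssu72, 0.57) and 1 in whole embryos (Ssu72, 1.33, and Ube2e1, 0.26). In whole 2-cell embryos against zygotes Hnrnpr (0.92) and Gapdh (0.13) reversed. On the deposited normalized values, 3, 1, 2 and 4 members passed per cell at the 2-, 4-, 8- and 16-cell steps, with Hnrnpr (0.13), Lmnb1 (1.36) and, at the 4-cell step, Ssu72 (-0.59) reversed. In whole embryos 1 passed at the 8-cell and 0 at the 32-cell step. At the 16-cell step of whole embryos Hnrnpr (-2.35), Ssu72 (-1.76), Ube2e1 (-2.33), Hspa8 (-1.79) and Lmnb1 (-0.89) reversed, and from zygote to 32-cell embryo Ssu72 (-1.53), Hspa8 (-1.15) and Lmnb1 (-0.034). With the mean of Hnrnpr, Ssu72 and Ube2e1 subtracted, a scaling added after seeing the data, 3, 1 and 2 passed per cell at the 2-, 4- and 8-cell steps and 1 and 1 in whole embryos at the 8- and 16-cell steps. Hnrnpr (0.78), Ssu72 (0.32), Gapdh (0.50) and Lmnb1 (2.01) reversed at the first, Hnrnpr (-0.035) and Ssu72 (-0.71) at the 4-cell, and Ssu72 (1.02) and Lmnb1 (1.82) at the 32-cell step per cell. In whole embryos Hnrnpr (1.08) and Gapdh (0.30) reversed at the 2-cell, Hnrnpr (-0.20) and Ube2e1 (-0.18) at the 16-cell and Ssu72 (1.02) at the 32-cell step.

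Other choices moved fewer counts. Without the samples left out by the study 1 member passed at the 8-cell step per cell and 1 in whole embryos. With each single cell as a replicate 1 passed at the 8-cell and 3 at the 16-cell step, and with the embryo as a random block 1 at the 8-cell step. The 2-cell samples of unclear unit gave 2 at the 4-cell step as blastomeres and 6 from zygote to the 2-cell embryo as embryos. With each unnumbered 2-cell blastomere as a unit 2 passed at the 4-cell step. With 1 unit left out, members past the threshold per cell ran from 0 to 0 from oocyte to zygote, 6 to 6, 2 to 5, 0 to 0, 0 to 1 and 2 to 4 at the following steps, and in whole embryos from 0 to 3, 0 to 0, 0 to 0, 4 to 6 and 1 to 4, with 4 to 4 from zygote to 32-cell embryo. For ESC RNA 6 of 6 passed each time. No leave-out reversed a call.

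The change of the difference between the triples from zygote to 32-cell embryo was -2.70 without Hnrnpr, -4.22 without Ssu72, -2.73 without Gapdh and -3.90 without Hspa8. Without Hnrnpr the difference was 0.014 in oocytes and 0.22 in zygotes, and without Ssu72 it was 0.11 at the 3-cell stage. Without Hspa8 it was 1.64 in oocytes, 1.48 in zygotes, 0.46, 1.12, 1.37 and 1.60 in 2-, 3-, 4- and 8-cell blastomeres and 0.91, 0.69 and 1.37 in 2-, 4- and 8-cell embryos, and its change from 4-cell to 8-cell blastomeres was 0.22.

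Replicate numbers of oocytes, zygotes and whole embryos are shared across groups but have no stated meaning, and same-numbered samples did not deviate together (72 pairs, median r -0.0100, from -0.27 to 0.21). With the number as a replicate block 0 members passed from oocyte to zygote, 2, 0, 0, 6 and 2 in the steps of whole embryos and 3 from zygote to 32-cell embryo.

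Over all 192 assays, the counts called higher and lower are given on the raw level and then under the 3 scalings in the order above. Per cell they were 10 and 139, then 52 and 62, 43 and 88, 49 and 68 at the 2-cell step, 81 and 2, then 14 and 27, 13 and 21, 11 and 21 at the 4-cell step, and 13 and 33, then 26 and 31, 15 and 56, 19 and 45 at the 8-cell step. They were 5 and 9, then 16 and 15, 6 and 67, 25 and 9 at the 16-cell step, and 2 and 102, then 17 and 17, 8 and 57, 25 and 4 at the 32-cell step. In whole embryos they were 30 and 98, then 49 and 66, 40 and 74, 51 and 56 at the 2-cell step, 12 and 7, then 20 and 25, 12 and 33, 11 and 33 at the 8-cell step, 126 and 2, then 21 and 18, 8 and 98, 23 and 12 at the 16-cell step, and 4 and 95, then 26 and 28, 10 and 34, 14 and 31 at the 32-cell step. From zygote to 32-cell embryo they were 69 and 75, then 78 and 75, 31 and 132, 68 and 84. Among other choices, 50 and 47 assays passed at the 4-cell step per cell under both other readings of the 2-cell units and 38 without 2c.A.e1. At the 8-cell step 30 passed without 4c.e5 and 29 without 4c.e6. At the 16-cell step 64 passed with each cell as a replicate, 26 with the embryo as a random block, 9 without mor.4 and 8 without mor.5, and 51 passed at the 32-cell step without mor.5. In whole embryos each cell as a replicate gave 5, 80 and 52 at the 8-, 16- and 32-cell steps, undetected values as missing gave 38 at the 8-cell step, and the second 8-cell embryo left out gave 12. The steps with 1 assay called had 0 to 4 (zygote) and 0 to 3 (4-cell embryo) under the choices run.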
